A study of Arabidopsis thaliana with 12 samples.

Results

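The beta-tubulins of Arabidopsis thaliana are a family of 9 genes, TUB1 to TUB9. They were described here wherever the probe-to-gene table of the array pairs a probe set, the group of short probes that reports 1 transcript, with that gene alone. By this rule 5 of the 9 genes were measured: TUB1 (AT1G75780, probe set 262978_at), TUB5 (AT1G20010, 261230_at), TUB6 (AT5G12250, 250317_at), TUB7 (AT2G29550, 266295_at) and TUB9 (AT4G20890, 254446_at). They are 5 of the 13356 genes that have a probe set of their own on the array. TUB2, TUB3, TUB4 and TUB8 were not paired alone with a probe set in the table used and were not analysed here. All 5 measured genes passed the filter on dim probe sets. The probe sequences were not used here, and cross-hybridisation between these similar genes was not tested.

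Microtubules are hollow polymers of alpha- and beta-tubulin dimers. Newly made tubulin passes through the prefoldin and CCT chaperonin complexes and is then paired by tubulin folding cofactors, before dimers join a polymer that starts from gamma-tubulin complexes. In plants, cortical microtubules guide cellulose synthase in the membrane and so the direction of cell growth, and other microtubule arrays carry chromosomes and build the new wall in dividing cells. Cytokinins such as t-zeatin promote cell division and act through a phosphorelay: receptor kinases pass phosphate by carrier proteins to response regulators. Type-A response regulators such as ARR16 are early cytokinin-induced genes, and ARR22 is a type-C regulator that can take phosphate from the carriers.

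Complete plants of 21 days at the vegetative stage were profiled on 12 single-colour arrays with biotin-labelled total RNA, 3 arrays in each of 4 groups. The groups were ARR22-ox plants, labelled as overexpressing ARR22, given 20 µM t-zeatin for 3 h; ARR22-ox plants without treatment; wild-type Col-0 plants (stock N1092) given the same t-zeatin; and Col-0 plants without treatment. The untreated plants received no mock treatment by their labels. The labels give neither the promoter of the ARR22 transgene nor whether the ARR22-ox plants are 1 line, and they name no growth or hybridisation batch, so a batch that followed a group cannot be told apart from it. The sample titles of the Col-0 t-zeatin group, and of no other group, end in a suffix that the labels leave unexplained. Whatever it marks cannot be told apart from that group, which had the highest mean signal for all 5 beta-tubulins. Nor do they tell if separate plants stand behind the 3 arrays of a group, and the p-values below therefore measure only the spread between these arrays.

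Every array had been scaled to the same trimmed mean of 100 signal units, and no pair of arrays was identical. The probe set of ARR22 averaged 2892 ± 209 signal units in ARR22-ox plants after t-zeatin and 3255 ± 402 in untreated ARR22-ox plants, against 0.52 ± 0.11 in Col-0 after t-zeatin and 1.13 ± 0.69 in untreated Col-0 (SD, n = 3 arrays each). ARR16 averaged 8.55 ± 1.42 and 17.7 ± 6.27 in t-zeatin-treated and untreated ARR22-ox plants, and 244 ± 17.0 and 27.1 ± 3.74 in t-zeatin-treated and untreated Col-0 plants. In complete plants, fewer cells of a type and less RNA per cell cannot be told apart. One array, ARR22-ox untreated replicate 3, stood apart from the rest. Its mean correlation with its own group was 0.936, against 0.948 to 0.964 on the other 11 arrays. Its ratio of 3′ to 5′ GAPDH control signal, a sign of RNA quality, was 1.82, and the highest ratio elsewhere was 1.08. Its signal lay above both other arrays of its group for TUB1, TUB5, TUB6 and TUB7 and below both for TUB9, so results that rest on it are also given without it.

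**Figure D1:**
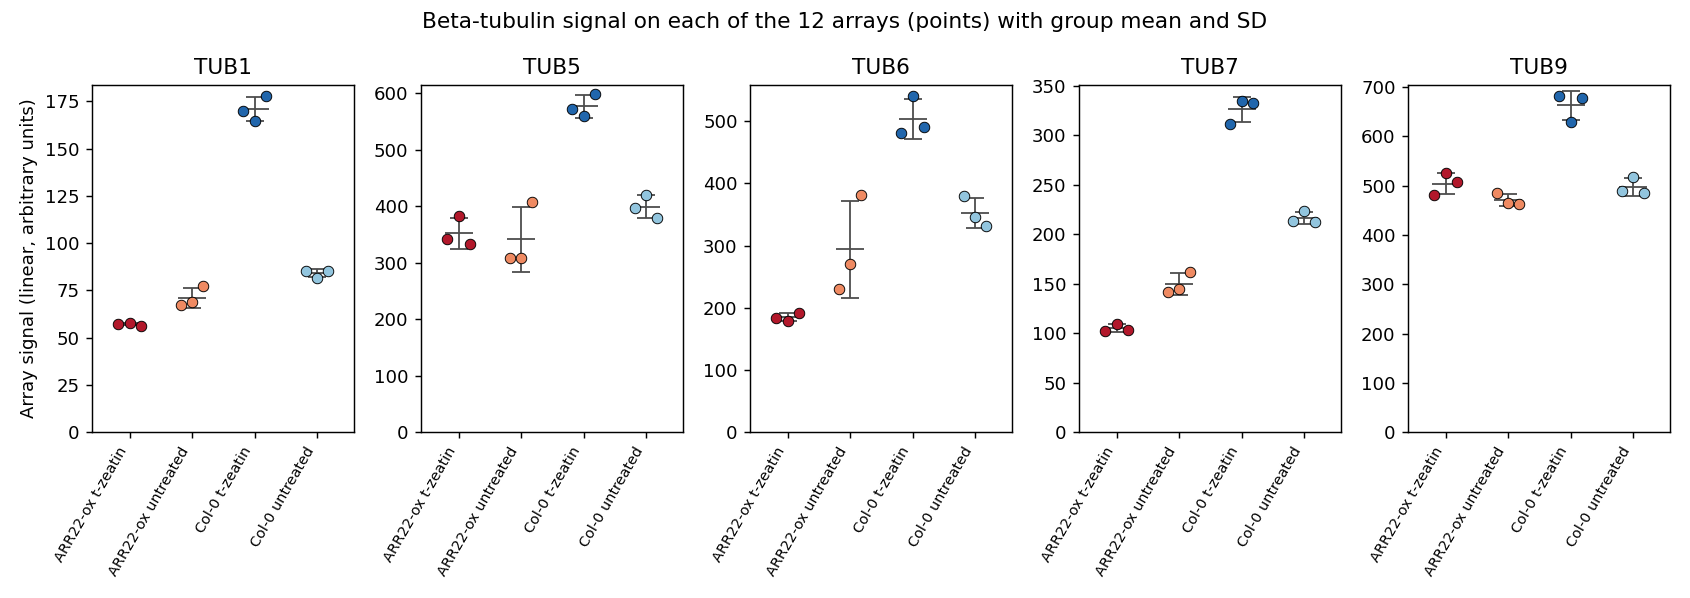
Array signal (linear scale, arbitrary units, axis from 0) of each measured beta-tubulin gene on the 12 arrays, one panel per gene, with group means and SD bars over 3 arrays. The Col-0 t-zeatin arrays are the highest in all 5 panels, and the single high ARR22-ox untreated point of TUB5 (408) and of TUB6 (381) is replicate 3.

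The first question was how the beta-tubulins of wild-type plants responded to 3 h of t-zeatin. All 5 measured genes rose. TUB1, which is expressed mainly in roots, changed most, 2.03-fold, and the other 4 rose 1.33- to 1.51-fold.

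TUB1 gave signals of 170.2, 165 and 178 on the Col-0 t-zeatin arrays, against 85.5, 81.8 and 85.5 on the untreated Col-0 arrays. The lowest treated array thus lay far above the highest untreated one. The log2 change was 1.02 ± 0.09 (SE, 95% interval 0.83 to 1.21, limma adjusted p = 1.86e-06), which is above the change of 95.05% of all tested probe sets.

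TUB7 gave 311, 334 and 333 after t-zeatin, against 213, 223 and 212 without it. The 6 arrays again fell into 2 separate ranges, and the log2 change was 0.59 ± 0.08 (limma adjusted p = 8.96e-05). TUB5 gave 572, 560.0 and 599 after t-zeatin, against 397, 420.4 and 379.9 in untreated plants. All its treated arrays were higher than all its untreated arrays, with a log2 change of 0.53 ± 0.11 (limma adjusted p = 0.00155).

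TUB6, whose transcript is known to be cold-sensitive, gave 481, 540.4 and 490.4 after t-zeatin, against 380.0, 346 and 332 in untreated Col-0. The groups did not overlap, and the log2 change was 0.52 ± 0.15 (limma adjusted p = 0.0121). This call was lost without Col-0 t-zeatin replicate 2, where the change was 0.46 and the adjusted p 0.0501. ARR22-ox untreated replicate 3 is in neither Col-0 group but enters the variance that the fit shares over all groups. Without that array the TUB6 change was 0.52 ± 0.07 (limma adjusted p = 1.30e-05). TUB9 had the smallest rise, with signals of 682, 629.6 and 678 after t-zeatin, against 489, 518 and 484 without. Its small spread between arrays still separated the groups at a log2 change of 0.41 ± 0.07 (limma adjusted p = 0.000329).

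Thus 5 of 5 genes were called higher in the Col-0 response, where 23.7% of the 13648 tested probe sets were called higher, 21.1% lower and 44.8% in either direction. The groups did not overlap for any of the 5 genes, which was also so for 64.4% of all tested probe sets. The median log2 change of the 5 genes was 0.53, beside 0.01 for all tested probe sets.

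The second question was whether the same treatment changed these genes in ARR22-ox plants. None of the 5 was called higher there. TUB6, TUB7 and TUB1 fell after t-zeatin, and TUB5 and TUB9 did not pass the test.

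TUB6 gave 184, 178 and 192 in ARR22-ox plants after t-zeatin, against 229.7, 270.5 and 381 in untreated ARR22-ox plants. The treated arrays lay close together below all untreated ones, and most of the untreated spread came from replicate 3. The log2 change was -0.64 ± 0.15 (limma adjusted p = 0.00314), and without replicate 3 it was -0.43 (adjusted p = 0.000242).

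TUB7 gave 102, 109.5 and 104 after t-zeatin, against 141, 145 and 162 in untreated ARR22-ox plants. The ranges were separate, and the log2 change was -0.50 ± 0.08 (limma adjusted p = 0.000266) with all arrays and -0.44 (adjusted p = 3.73e-05) without replicate 3. TUB1 gave 57.2, 57.7 and 56.4 after t-zeatin, against 67.3, 68.8 and 77.2 without it. Its treated arrays were nearly equal and all below the untreated ones, with a log2 change of -0.31 ± 0.09 (limma adjusted p = 0.00942). The call was kept without replicate 3 (-0.25, adjusted p = 0.0171) and was lost when only the 6 ARR22-ox arrays were fitted (adjusted p = 0.0588).

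TUB5 gave 341, 384 and 332 after t-zeatin, against 308, 309 and 408 in untreated ARR22-ox plants. The groups overlapped because of the high replicate 3, and the log2 change was 0.06 ± 0.11 (95% interval -0.18 to 0.29, limma adjusted p = 0.695). Without replicate 3 all treated arrays were above the untreated ones, and the change was 0.19 (adjusted p = 0.0262). TUB9 gave 481, 525 and 507 after t-zeatin, against 485, 465 and 464 without it. The ranges overlapped, and the log2 change was 0.10 ± 0.07 (95% interval -0.05 to 0.24, limma adjusted p = 0.249).

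In ARR22-ox, then, 3 of 5 genes were called lower and none higher, where 25.1% of all tested probe sets were called lower and 25.2% higher (50.3% in either direction). Groups did not overlap for those 3 genes, as for 55.0% of all tested probe sets. Without replicate 3 the counts were 3 lower and 1 higher, beside 30.7% lower and 30.4% higher over all tested probe sets. The median log2 change of the 5 genes was -0.31 with all arrays. TUB1, TUB6 and TUB7 were thus called in opposite directions in the genotypes, a pattern shared by 695 of the 13648 tested probe sets (5.09%). These 2 responses share no array, although the fit gives them 1 variance per probe set.

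**Figure D2:**
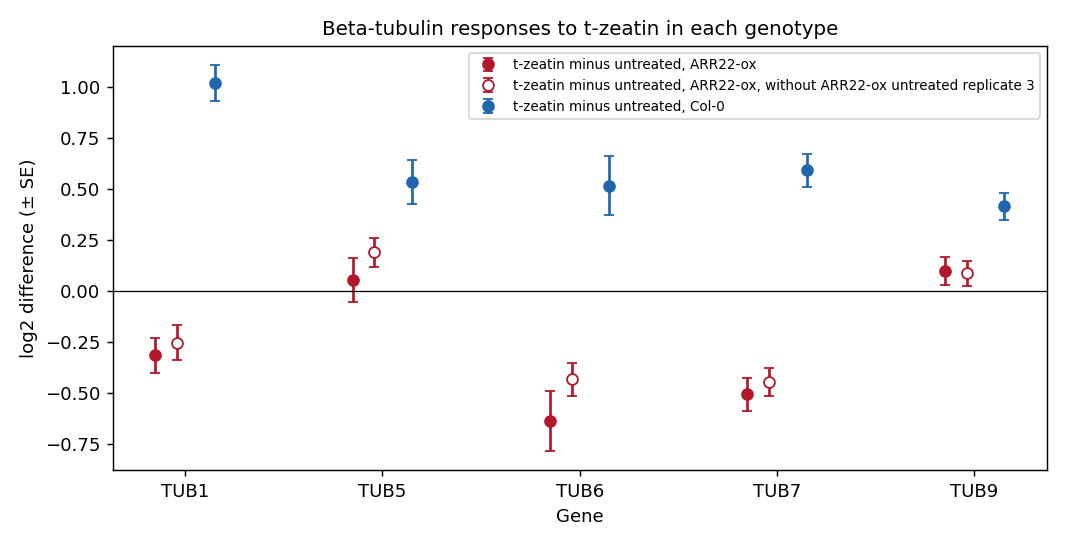
Log2 change after t-zeatin (y axis, ± SE) for each measured beta-tubulin gene (x axis) in ARR22-ox and in Col-0, each from 3 treated and 3 untreated arrays, with open circles for ARR22-ox without untreated replicate 3. All 5 Col-0 values lie between 0.41 and 1.02, and those of ARR22-ox with all arrays lie between -0.64 and 0.10. The open circles run from -0.44 (TUB7) to 0.19 (TUB5).

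The third comparison tested the difference itself, the response in ARR22-ox minus the response in Col-0. For all 5 genes the ARR22-ox response was the lower one (24.5% of all tested probe sets were called lower, 21.1% higher and 45.6% in either direction). The median difference of the 5 genes was -1.10, beside -0.05 for all tested probe sets.

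TUB1 had the largest difference, -1.33 ± 0.12 on the log2 scale (limma adjusted p = 3.47e-06), and 4.26% of tested probe sets had a lower one. TUB6 differed by -1.15 ± 0.21 (limma adjusted p = 0.000654) and TUB7 by -1.10 ± 0.12 (limma adjusted p = 9.87e-06). Over all tested probe sets the 5th percentile was -1.27, below which lay TUB1 but not TUB6 or TUB7. The lowest difference was -4.81.

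TUB5 and TUB9 had smaller differences of -0.48 ± 0.15 (limma adjusted p = 0.0218) and -0.32 ± 0.10 (limma adjusted p = 0.0165). These lay within the bulk of tested probe sets, of which 26.2% had a lower difference than TUB5 and 34.3% a lower one than TUB9. The TUB5 call missed the threshold in 4 of the 12 fits that omitted 1 array (adjusted p between 0.0507 and 0.0560). The arrays omitted were replicates 1 and 3 of the ARR22-ox t-zeatin group and the third replicates of both Col-0 groups. Without ARR22-ox untreated replicate 3 all 5 differences were called, with TUB5 at -0.34 (adjusted p = 0.00445) and TUB9 at -0.33 (adjusted p = 0.00243), where 32.1% of all tested probe sets were called lower. TUB1 was then at -1.27, TUB6 at -0.95 and TUB7 at -1.04.

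**Figure D3:**
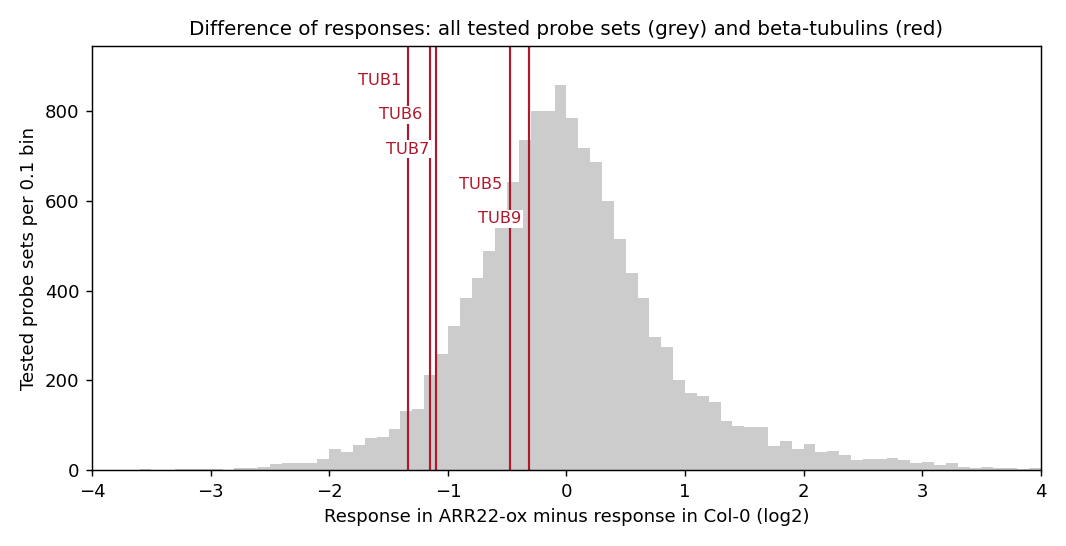
Number of tested probe sets (y axis, bins of 0.1) by response in ARR22-ox minus response in Col-0 (x axis, log2), with red lines at the 5 beta-tubulin genes. TUB1, TUB6 and TUB7 stand between -1.33 and -1.10, and TUB5 and TUB9 at -0.48 and -0.32 within the main body of the distribution.

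Without hormone, the genotypes differed less. TUB7 and TUB1 were lower in ARR22-ox, and TUB5, TUB6 and TUB9 did not pass the test. The signals are those given above, and this comparison shares its untreated arrays with both responses, so its values are set beside theirs only as a description.

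TUB7 had the clearest difference, with 141, 145 and 162 in untreated ARR22-ox and 213, 223 and 212 in untreated Col-0. Every ARR22-ox array was below every Col-0 array, at a log2 difference of -0.54 ± 0.08 (limma adjusted p = 0.000169). For TUB1 the highest ARR22-ox array (77.2) was below the lowest Col-0 array (81.8). Its log2 difference of -0.25 ± 0.09 (limma adjusted p = 0.0319) lost its call in 8 of the 20 alternative settings, with adjusted p between 0.0520 and 0.134. These included leaving out any 1 of the 3 untreated Col-0 arrays or ARR22-ox untreated replicate 1 or 2.

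TUB5 averaged 342 ± 57.2 in ARR22-ox and 399 ± 20.3 in Col-0, with a log2 difference of -0.24 ± 0.11 (limma adjusted p = 0.0877). TUB6 averaged 294 ± 78.5 in ARR22-ox and 352 ± 24.8 in Col-0, with a difference of -0.29 ± 0.15 (limma adjusted p = 0.116). For both genes ARR22-ox replicate 3 lay within or above the Col-0 range, and the other arrays of ARR22-ox lay below it. TUB9 averaged 471 ± 12.0 in ARR22-ox and 497 ± 18.3 in Col-0. The 2 ranges barely touched, and the difference was -0.08 ± 0.07 (95% interval -0.23 to 0.07, limma adjusted p = 0.363).

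The count of 2 of 5 genes called lower stands beside 24.0% of all tested probe sets called lower, 24.5% called higher and 48.5% called in either direction. Only TUB1 and TUB7 of the 5 had groups that did not overlap, as did 51.6% of all tested probe sets. Without ARR22-ox untreated replicate 3, 4 of 5 genes were lower, where 30.3% of all tested probe sets were. TUB5 was then at -0.37 (adjusted p = 0.000207), TUB6 at -0.50 (adjusted p = 5.92e-05), TUB1 at -0.31 (adjusted p = 0.00495) and TUB7 at -0.60 (adjusted p = 1.38e-06). TUB9 stayed uncalled at -0.07 (adjusted p = 0.355).

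After t-zeatin all 5 genes were lower in ARR22-ox, and the ARR22-ox and Col-0 arrays overlapped for none of them. The size of the gap differed within the family, from 3.10-fold for TUB7 to 1.32-fold for TUB9. ARR22-ox untreated replicate 3 is not among the 6 arrays compared, but it enters the variance that the fit shares over all groups: without it the SE of TUB6 here was 0.07, against 0.15 with it.

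TUB7 averaged 105 ± 3.90 in ARR22-ox and 326 ± 12.9 in Col-0 after t-zeatin, a log2 difference of -1.63 ± 0.08 (limma adjusted p = 1.36e-08). TUB1 averaged 57.1 ± 0.65 in ARR22-ox and 171 ± 6.44 in Col-0, and its difference of -1.58 ± 0.09 (limma adjusted p = 3.07e-08) amounts to a 2.99-fold lower signal. The signals of both genes varied little between arrays next to this gap.

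TUB6 averaged 185 ± 6.56 in ARR22-ox and 504 ± 31.9 in Col-0, a log2 difference of -1.45 ± 0.15 (limma adjusted p = 5.18e-06). TUB5 averaged 352 ± 27.3 in ARR22-ox and 577 ± 20.1 in Col-0, at -0.71 ± 0.11 (limma adjusted p = 0.000134). TUB9 averaged 504 ± 22.0 in ARR22-ox and 663 ± 29.2 in Col-0, at -0.40 ± 0.07 (limma adjusted p = 0.000363). The count of 5 of 5 genes called lower stands beside 28.0% of all tested probe sets called lower, 23.1% called higher, 51.0% called in either direction and 69.4% with groups that did not overlap. The median difference was -1.45 for the 5 genes and -0.05 for all tested probe sets.

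**Figure D4:**
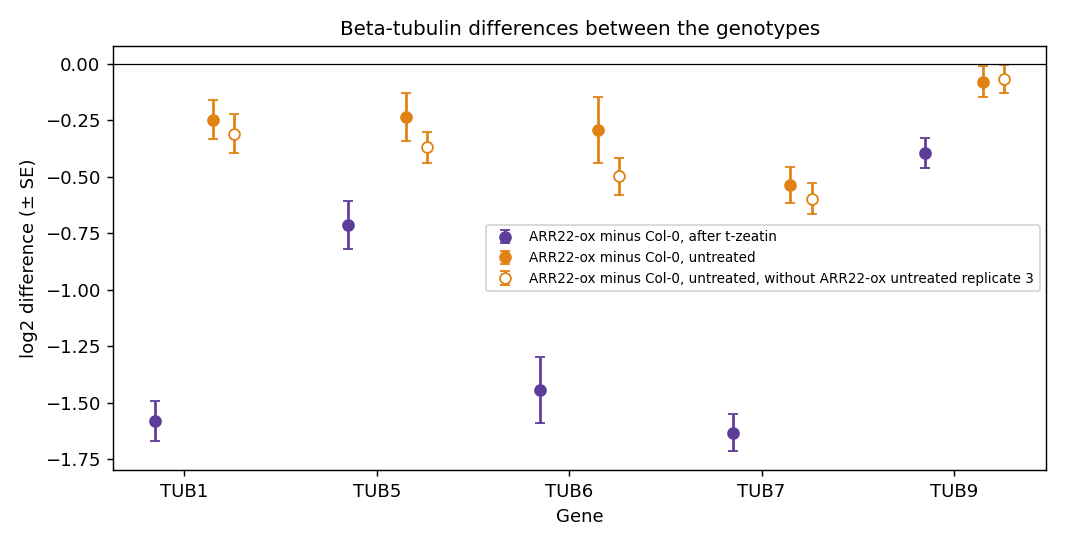
Log2 difference of ARR22-ox minus Col-0 (y axis, ± SE) for each measured beta-tubulin gene (x axis), after t-zeatin and untreated, with open circles for the untreated comparison without ARR22-ox untreated replicate 3. After t-zeatin the 5 values run from -1.63 to -0.40, and untreated with all arrays they run from -0.54 to -0.08. The open circles run from -0.60 (TUB7) to -0.07 (TUB9).

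The 5 genes shared the highest group, Col-0 after t-zeatin, and differed in the order of the rest. For TUB1 and TUB7 the order from high to low was Col-0 t-zeatin, Col-0 untreated, ARR22-ox untreated and ARR22-ox t-zeatin, and no neighbouring groups overlapped. TUB6 had the same order, with the 2 untreated groups overlapping. For TUB5 and TUB9 the 3 lower groups overlapped from neighbour to neighbour, and the untreated ARR22-ox group had the lowest mean. The group next below Col-0 t-zeatin was untreated Col-0 for TUB5 and ARR22-ox t-zeatin for TUB9.

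Over the 12 arrays, Pearson's r of log2 signal between pairs of the 5 genes ran from 0.63 for TUB6 and TUB9 to 0.96 for TUB6 and TUB7. These values hold the group differences themselves. For deviations from the group means, r among TUB1, TUB5, TUB6 and TUB7 was between 0.61 and 0.88 over 12 arrays. Over the 9 arrays outside the untreated ARR22-ox group the same 6 pairs ran from -0.36 for TUB1 and TUB6 to 0.69 for TUB5 and TUB7, and 3 of them were negative. Pairs with TUB9 lay between -0.40 and 0.20 over 12 arrays and between -0.49 and 0.72 over the 9.

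The 5 named genes with the profile most like the mean scaled profile of the beta-tubulins over the 12 arrays were AT2G34590 (r = 0.988), ARR16 (r = 0.987), AT5G67130 (r = 0.980), IQD24 (r = 0.979) and AT3G20820 (r = 0.977). ARR16 is the type-A regulator described above, and IQD24 belongs to a family of calmodulin-binding proteins. The mean signals of ARR16 in the ARR22-ox groups, 8.55 and 17.7, lay below the lowest kept mean of 24.3. Its r thus rests partly on low signals. These are descriptions over arrays that share the same 4 groups. The size of the response was not part of the measure: ARR16 changed by 3.18 on the log2 scale in Col-0 and IQD24 by 0.90. In ARR22-ox, ARR16 changed by -1.01. The changes there were smaller for AT2G34590 (-0.12), AT5G67130 (-0.05), IQD24 (-0.02) and AT3G20820 (-0.24).

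Of the alpha-tubulins, the partners of the beta-tubulins in the dimer, 2 of 6 genes had a probe set of their own. TUA6, a broadly expressed gene, gave 568, 659 and 670.2 in ARR22-ox after t-zeatin, against 818, 879 and 930.2 in untreated ARR22-ox. In Col-0 it gave 1274, 1386 and 1322 after t-zeatin, against 994, 994 and 992 in untreated plants. TUA6 was thus called in opposite directions as were TUB1, TUB6 and TUB7, at -0.47 ± 0.08 in ARR22-ox (limma adjusted p = 0.000292) and 0.42 ± 0.08 in Col-0 (limma adjusted p = 0.000824).

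TUA1, known mainly from pollen, did not share the pattern. It averaged 143 ± 17.1 in ARR22-ox after t-zeatin and 104 ± 22.0 in untreated ARR22-ox, with overlapping groups and a log2 change of 0.47 ± 0.15 (limma adjusted p = 0.0160). That call was lost with only the ARR22-ox arrays and without ARR22-ox replicate 1 or 2 of either treatment (adjusted p between 0.0508 and 0.0684). Without ARR22-ox untreated replicate 3, the TUA1 groups did not overlap and the change was 0.64 (limma adjusted p = 8.78e-05). In Col-0 it averaged 119 ± 11.1 after t-zeatin and 137 ± 9.96 without (-0.21 ± 0.15, limma adjusted p = 0.270). Between the untreated genotypes TUA1 was at -0.41 (limma adjusted p = 0.0322) and TUA6 at -0.18 (limma adjusted p = 0.0653). The TUA1 call was lost without replicate 1 or 2 of either untreated group and with only the arrays of the groups compared. Without ARR22-ox untreated replicate 3, TUA1 was called at -0.58 (limma adjusted p = 0.000220) and TUA6 at -0.23 (limma adjusted p = 0.00790). TUA6 was also called without ARR22-ox t-zeatin replicate 1, with quantile normalization and with array weights. After t-zeatin TUA6 was lower in ARR22-ox (-1.07, limma adjusted p = 2.90e-07), and TUA1 was at 0.27 (limma adjusted p = 0.142). This TUA1 difference was called without ARR22-ox untreated replicate 3 (limma adjusted p = 0.0238). It was also called with array weights (0.0231) and with only the arrays of the groups compared (0.0297).

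Among the subunits of the CCT chaperonin, which folds tubulin and actin, 8 of 9 genes were tested. After t-zeatin 3 of 8 fell in ARR22-ox and none rose, beside 25.1% and 25.2% of all tested probe sets (median log2 change -0.11). Among them was CCT6B at -0.63 ± 0.11 (limma adjusted p = 0.000387). In Col-0, 7 of 8 rose, beside 23.7% of all tested probe sets (median 0.74), with CCT8 highest at 1.03 ± 0.10 (limma adjusted p = 3.71e-06). CCT2, CCT5 and CCT6B were called lower in ARR22-ox and higher in Col-0, as were TUB1, TUB6 and TUB7 (5.09% of all tested probe sets). The response was lower in ARR22-ox than in Col-0 for 6 of 8, beside 24.5% of all tested probe sets, with CCT6B at -1.40 ± 0.15. Without ARR22-ox untreated replicate 3, 3 of 8 fell and 1 rose in ARR22-ox (beside 30.7% and 30.4% of all tested probe sets), 8 of 8 rose in Col-0 (beside 30.9%), and 7 of 8 had the lower response (beside 32.1%).

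In untreated ARR22-ox 4 of the 8 chaperonin genes were higher than in untreated Col-0 and none lower, beside 24.5% and 24.0% of all tested probe sets. CCT5 was at 0.54 ± 0.07 (limma adjusted p = 4.37e-05). Without ARR22-ox untreated replicate 3 these counts were 5 higher and 1 lower, CCT7 at -0.53. The chaperonin genes were not tested against the beta-tubulins. After t-zeatin 8 of 8 were lower in ARR22-ox, beside 28.0% of all tested probe sets, down to CCT4 at -1.10 ± 0.12 (limma adjusted p = 1.03e-05).

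**Figure D5:**
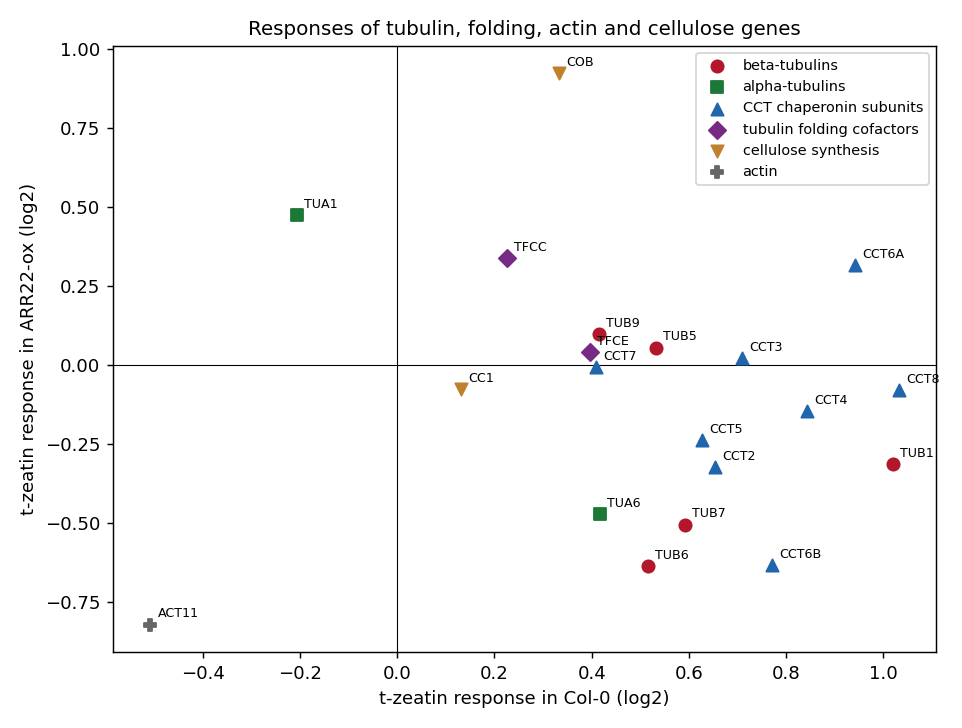
Log2 t-zeatin response in ARR22-ox (y axis) against that in Col-0 (x axis) for tested beta- and alpha-tubulin genes, CCT chaperonin subunits, folding cofactors, cellulose synthesis genes and actin, 1 symbol per gene and each response from 6 arrays. TUB1, TUB6, TUB7 and TUA6 lie at the lower right, below 0 in ARR22-ox and above 0 in Col-0. CCT2, CCT4, CCT5, CCT6B, CCT7, CCT8 and CC1 lie in the same quadrant, and TUA1 lies at the upper left.

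Few other cytoskeleton genes could be read. Of 5 tubulin folding cofactor genes 2 were tested: TFCE rose in Col-0 by 0.40 (limma adjusted p = 0.00742) and TFCC in ARR22-ox by 0.34 (limma adjusted p = 0.0184). The TFCC call was lost without replicate 2 of either ARR22-ox group. It was also lost with quantile normalization, with the same median on every array and with only the arrays of the groups compared. Between the untreated genotypes TFCE was at 0.28 (limma adjusted p = 0.0370), a call lost without replicate 1 or 3 of either untreated group. That call was also lost without the filter on dim probe sets, with array weights and with only the arrays of the groups compared. Of 7 genes of the gamma-tubulin complex 1 was tested, GCP2, and it was called in none of the 5 comparisons. Of 25 microtubule-associated protein genes 2 were tested, MAP65-6, a member of the MAP65 family, and SPR1, which is needed for straight growth. The ARR22-ox response of MAP65-6 was -0.54 with overlapping groups (limma adjusted p = 0.0464). That call was lost without any 1 array other than ARR22-ox untreated replicate 2, with -0.25 without ARR22-ox untreated replicate 3 (adjusted p = 0.1003), and in 4 other settings. After t-zeatin MAP65-6 was at -0.70 between the genotypes (limma adjusted p = 0.0131), a call lost without ARR22-ox t-zeatin replicate 1 (adjusted p = 0.0511). SPR1 was called in none of the 5 comparisons with all arrays. Without ARR22-ox untreated replicate 3 its responses were called at 0.21 in ARR22-ox and 0.21 in Col-0, and its genotype differences at -0.15 untreated and -0.15 after t-zeatin.

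The kinesin KIN13A, the only one tested of 15 listed, was higher in Col-0 after t-zeatin (0.30, limma adjusted p = 0.0358). That call was lost without any 1 of the Col-0 t-zeatin arrays, Col-0 untreated replicate 2 or 3 or ARR22-ox t-zeatin replicate 2. It was also lost with quantile normalization and with the same median on every array. Leaving out ARR22-ox untreated replicate 3 kept it (limma adjusted p = 0.00200). No prefoldin gene of 6 and no cell division gene of 13 had a probe set of its own. ACT11, the only tested gene of 8 actins, fell in both genotypes, at -0.82 in ARR22-ox (limma adjusted p = 0.000907) and -0.51 in Col-0 (limma adjusted p = 0.0191), and the difference of its responses was not called (adjusted p = 0.269). Its Col-0 call was lost without replicate 1 or 3 of the untreated or 2 or 3 of the t-zeatin arrays. The same call was kept without ARR22-ox untreated replicate 3 (limma adjusted p = 0.00295). ACT11 was lower in ARR22-ox than in Col-0 without t-zeatin (-0.74) and with it (-1.05).

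Of 13 cellulose synthesis genes 2 were tested. COB, needed for oriented cell expansion, rose in both genotypes, at 0.92 ± 0.10 in ARR22-ox (limma adjusted p = 8.27e-06) and 0.33 ± 0.10 in Col-0 (limma adjusted p = 0.0134). The Col-0 call of COB was lost without the third untreated array of Col-0 (limma adjusted p = 0.0637) or its second t-zeatin array (limma adjusted p = 0.0503). It was kept without ARR22-ox untreated replicate 3 (limma adjusted p = 0.00197). COB was lower in ARR22-ox than in Col-0 without t-zeatin (-1.48, limma adjusted p = 1.24e-07) and with it (-0.89). CC1, which links cellulose synthase to microtubules, was lower in ARR22-ox than in Col-0, at -0.37 untreated and -0.57 after t-zeatin. Its responses were not called, and their difference was called without ARR22-ox untreated replicate 3 (-0.27, adjusted p = 0.0386).

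Markers of organs moved with some of these groups. Of 8 root markers 3 were measured, and their summed signal ran from 1409 to 1505 in ARR22-ox after t-zeatin, 1639 to 1869 in untreated ARR22-ox, 2094 to 2156 in Col-0 after t-zeatin and 2091 to 2304 in untreated Col-0. Most of this sum was PYK10, a root beta-glucosidase, which was lower in ARR22-ox than in Col-0 without t-zeatin (-0.35, limma adjusted p = 0.000856) and with it (-0.57, limma adjusted p = 1.45e-05). Within ARR22-ox, PYK10 fell after t-zeatin (-0.27, limma adjusted p = 0.00429), while in Col-0 it was at -0.05 (limma adjusted p = 0.594). The ARR22-ox response of PYK10 was -0.12 with quantile normalization (adjusted p = 0.121). EXPA7, an expansin of root hairs, fell in Col-0 (-0.71, limma adjusted p = 0.0101) and was higher in ARR22-ox than in Col-0 after t-zeatin (0.76), and EXPA18 was called in no comparison. The part of root content in the TUB1 values and in those of the other beta-tubulins was not tested.

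Of 7 green tissue markers 1 was measured, RCA, the activase of Rubisco. Its signal ran from 2125 to 2332 in ARR22-ox after t-zeatin, 2553 to 3075 in untreated ARR22-ox, 2503 to 2514 in Col-0 after t-zeatin and 2959 to 3099 in untreated Col-0. It fell after t-zeatin in both genotypes, at -0.30 in ARR22-ox and -0.27 in Col-0, and the difference of these responses was -0.03 (limma adjusted p = 0.836). With quantile normalization both responses lost their call, at -0.11 in ARR22-ox and -0.10 in Col-0. None of 4 flower markers had a probe set of its own.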

How the data were processed

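The authors deposited linear array intensity for each probe set, made with MAS5 (no version given) per the submitters' processing notes. Each array had a mean of 100 after 2% trimming at each end. Of 22810 probe sets, 64 control probe sets were left out. Detection calls were not used here. Signals were converted to log2, and the 13648 of 22746 probe sets with a mean at or above the 40th percentile (signal 24.3) were tested. Means are given with SD over 3 arrays, whose number limits the precision.

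The 4 group means were fitted with limma 3.58.1 (R 4.3.3; lmFit, eBayes with a variance trend) on all 12 arrays. Tests of 5 comparisons were two-sided, and calls needed p under 0.05 after Benjamini-Hochberg adjustment over the 13648 probe sets. The fit was run on simulated arrays with planted changes and independent noise of the same size on every array. That run checked the code and not the calls above, since the real arrays differ in quality. Gene names came from the given platform table, in which 13513 probe sets have 1 gene, 503 several and 8730 none, and 13436 of the first were in the given annotation. Replicate numbers follow sample order and pair nothing. Alternatives were scaling, offset, filter, variance model, array weights, arrays fitted and leaving out each array.

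The members and gene lists were chosen with earlier results of these data known. All beta- and tested alpha-tubulins were named, of other lists the called gene with the largest change per comparison, and the 5 most alike genes. GCP2, SPR1, CCT7, EXPA18 and CC1, and a few values of PYK10 and RCA in other comparisons, fall outside that rule and were added after their values were seen.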

Additional observations from a re-analysis of the deposited data

Results flagged for a closer look

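For each result here, the t-zeatin response differed between the genotypes by the test of the difference itself, the response in ARR22-ox minus that in Col-0 on the log2 scale (limma, Benjamini-Hochberg adjusted p under 0.05 over all 13648 tested probe sets). Groups of 3 arrays were not tested for single outlying arrays. Among the beta-tubulins all 5 met this, with differences of -1.33 for TUB1, -0.48 for TUB5, -1.15 for TUB6, -1.10 for TUB7 and -0.32 for TUB9. Without ARR22-ox untreated replicate 3 these were -1.27, -0.34, -0.95, -1.04 and -0.33 in the same order. TUB1, TUB6 and TUB7 moved in opposite directions in the genotypes, whereas TUB5 and TUB9 did not pass the test in ARR22-ox and rose in Col-0.

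The alpha-tubulins went opposite ways, with TUA6 at -0.89 and TUA1 at 0.68. The chaperonin subunit CCT6B was at -1.40, COB at 0.59, and the root-hair expansin EXPA7 at 0.81. The EXPA7 call was lost without replicate 1 or 2 of the Col-0 t-zeatin arrays, the first untreated array of either genotype or the third ARR22-ox t-zeatin array (adjusted p between 0.0628 and 0.0788). That call was also lost without the filter on dim probe sets (limma adjusted p = 0.0524). ARR16, the cytokinin-induced type-A regulator, was at -4.18, and at -3.91 without ARR22-ox untreated replicate 3. Its mean signals of 8.55 and 17.7 in the ARR22-ox groups lay below the lowest kept mean of 24.3, and detection calls were not used, so the size of this difference is uncertain.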

How the results depend on the processing

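The 25 beta-tubulin results were recomputed under 20 settings, 12 of which left out 1 array. Of 495 values, 471 kept direction and side of the threshold. Between the untreated genotypes the number of genes called was 2, and it was 1 with quantile normalization, 1 with the same median on every array, 1 with only the arrays of the groups compared and 4 with array weights. Leaving out 1 array gave 1 to 4, with 4 without ARR22-ox untreated replicate 3, and 1 without any 1 of the other 5 untreated arrays. The TUB5 response in ARR22-ox (0.06, not called) turned to -0.0083 with the same median on every array and ran from -0.0131 to 0.1893 over leaving out 1 array, with -0.0101 and -0.0070 in between. It was called at 0.18 with array weights (adjusted p = 0.0314). The cause was not tested. The other scalings moved the median change of all probe sets by under 0.1. No paired analysis was possible because the replicate numbers only follow sample order. The alternative of other probe sets was not run, as each named gene had 1 of its own.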
